A study of Ovis aries and Bos taurus with 6 samples.

Results

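The miR-26 and miR-29 families were described in small RNA of milk extracellular vesicles (EVs), small membrane-bound particles released by cells, with miRNAs among their cargo. All 6 libraries were of milk from females in mid lactation, 3 of the Ordos fine wool sheep breed and 3 of the Holstein cow. Members were the rows named miR-26a, miR-26b, miR-26c, miR-29a, miR-29b, miR-29c or miR-29d in the 2 count tables, whatever the arm suffix. Sheep rows without a miRBase name were also taken where bases 2 to 8 equalled those of sheep miR-26a or miR-29a. This gave 12 of 1464 rows, with 4 by name and 2 by seed among 685 sheep rows and 6 by name among 779 cow rows. No row analysed here was named miR-26c, and miR-29c and miR-29d were named only in the cow table. The cow libraries came from an earlier study of the same group, so the effects of species, breed and study on a comparison cannot be told apart. EVs were precipitated with a commercial kit that does not sort them by the cell of origin. In such preparations fewer vesicles from a source and less RNA per vesicle cannot be told apart.

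A miRNA guides a silencing complex to mRNAs mainly through its seed, bases 2 to 8, so miRNAs with one seed share most predicted targets. In humans and mice, miR-26 is known to act on EZH2, a histone methyltransferase, and its genes lie in introns of the CTDSP phosphatase genes. In goat mammary cells miR-26a and miR-26b have been tied to milk fat synthesis. miR-29 is known in humans and mice for acting on collagen and elastin mRNAs and on the DNA methyltransferases DNMT3A and DNMT3B, and in cow mammary cells it has been tied to DNA methylation of lactation genes.

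The sequences listed for the sheep rows show which bases the rows share. Capitals mark the bases of the miR-26 or miR-29 seed, which stand at 2 to 8 in every row but the shifted one, and each is read 5′ to 3′ in the DNA letters of the deposited table.
miR-26a: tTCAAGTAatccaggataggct
miR-26b: tTCAAGTAattcaggataggt
miR-29a: tAGCACCAtctgaaatcggtt
miR-29b: tAGCACCAtttgaaatcagtgt
unnamed unshifted row: tAGCACCAtttgaaatcggtt
unnamed star row: cAGCACCAggatattgttgggg
unnamed shifted row: ctAGCACCAtttgaaatcggtt

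miR-26a and miR-26b were the only rows of the sheep table with the miR-26 seed, TCAAGTA, and differed over 21 bases by C11T and C21T, counted from the 5′ end of miR-26a. The miR-29 seed, AGCACCA, stood at bases 2 to 8 of 4 sheep rows. miR-29a and miR-29b differed by C10T, G18A and T21G, counted from the 5′ end of miR-29a. The unshifted row differed from miR-29a only by C10T, so it carried the base of miR-29b at that position and those of miR-29a after it. The star row shared the seed with miR-29a but only 9 of 21 bases in all, so the rule took it on the seed alone. The shifted row was outside the rule and was added after the values were seen. It equals the unshifted row over all 21 bases with 1 more base at its 5′ end, which puts the miR-29 bases at 3 to 9 and not at 2 to 8. Neither the unshifted nor the shifted row has a miRBase name in the sheep table. The cow table lists no sequences, so whether either row is the miRNA named miR-29c there was not tested. In the RefSeq sheep annotation (assembly ARS-UI_Ramb_v3.0), MIR26A lies within CTDSP2 and MIR26B within CTDSP1. MIR29A and MIR29B-1 each overlap a long noncoding RNA gene, and CD46 stands between MIR29B-1 and MIR29B-2.

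The libraries differed in depth and in what filled them. Counts of all miRNA rows totalled 1073914 to 2078695 per sheep library and 328527 to 556489 per cow library. CPM below is a count scaled to 1000000 of its library's total. A row at 0 in the shallowest cow library could still be at up to 9.13 CPM (3 counts, counting error only, as for all intervals here). 1 row held 19.6% to 63.6% of a sheep library (miR-148a, highest in replicate 2) and 51.2% to 68.9% of a cow library (a row without a name). Rows without a name held 21.9% to 58.1% of a sheep library and 71.0% to 84.2% of a cow library. Cow reads of either family could lie in such rows, and every cow value below is of the named rows. Of 30 marker miRNAs in 8 cell type lists, 6 were named in the sheep table and 28 in the cow table. The 2 epithelial markers named in sheep held 0.180% to 0.557% of sheep counts, and the 6 named in cow 0.0111% to 0.0460% of cow counts. The leukocyte miRNA miR-150, the only marker of its list named in sheep, held 0.0637% of sheep replicate 1 against 0.00308% and 0.00363% of replicates 2 and 3. The 6 leukocyte markers named in cow held 0.463% to 0.900%, and the 3 red blood cell markers, named in cow only, held 1.53% to 2.76%. In cow the liver markers held 0.177% to 0.300%, the endothelial marker 0.173% to 0.279% and the stromal markers 0.0557% to 0.128%. The 2 stromal markers named in sheep held 0.708%, 0.168% and 0.232% of sheep replicates 1, 2 and 3, and the liver marker miR-194 held 0.0236%, 0.0142% and 0.00121%. Sheep replicate 1 thus stood apart in leukocyte and stromal markers, sheep replicate 2 in miR-148a and sheep replicate 3 in miR-194, so results below are also given without each library where that changes them. The part of these differences in the results was not tested.

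miR-26a was by far the most abundant member in both species. It had 13828, 14388 and 13528 counts in sheep replicates 1, 2 and 3, or 12451, 6922 and 12597 CPM. In cow replicates 1, 2 and 3 it had 12570, 32841 and 9258 counts, or 38262, 59015 and 23878 CPM. Every sheep library lay below every cow library on this scale, as for 23.7% of the 38 shared miRNAs tested below. Its rank among all rows was 15, 12 and 13 in sheep and 4, 4 and 5 in cow. The mean was 10656 ± 3235 CPM in sheep and 40385 ± 17664 CPM in cow (SD, n = 3 each).

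miR-26b, which shares the seed of miR-26a, was far lower in every library. It had 708, 693 and 408 counts in sheep (637, 333 and 380 CPM) and 129, 795 and 253 counts in cow (393, 1429 and 653 CPM). The species overlapped, and cow replicate 2 was the highest of the 6 libraries. The mean was 450.3 ± 164 CPM in sheep and 825 ± 539 CPM in cow (SD, n = 3 each).

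miR-29a carried nearly all counts of the named miR-29 rows. It had 1310, 1304 and 1974 counts in sheep (1179.5, 627 and 1838 CPM) and 223, 433 and 163 counts in cow (679, 778 and 420 CPM). Sheep replicate 2, where miR-148a was highest, lay among the cow libraries, and sheep replicates 1 and 3 lay above them. The mean was 1215 ± 606 CPM in sheep and 626 ± 185 CPM in cow (SD, n = 3 each).

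The other named miR-29 rows were low in both species, and at 0 in cow replicates 1 and 2. miR-29b had 36, 19 and 17 counts in sheep, against 0, 0 and 9 in cow. The cow rows miR-29c and miR-29d-3p had 1 and 10 counts in replicate 3 and 0 in replicates 1 and 2. Cow replicate 3 therefore held every cow count of miR-29b, miR-29c and miR-29d-3p. As members differ by few bases, the authors' counting could have given reads of one member to another, which makes single values of the low rows uncertain.

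The unnamed shifted row was the second miR-29 row of the sheep table by level. It had 1118, 1677 and 1210 counts in sheep replicates 1, 2 and 3, or 1007, 807 and 1127 CPM. That is 0.853, 1.29 and 0.613 times the count of miR-29a in the same libraries, so it exceeded miR-29a in replicate 2 alone. The unshifted row, equal to it apart from the first base, had 4, 6 and 5 counts. Of the counts of both rows, 99.6% were listed in the shifted row in each library. The rows are separate entries of the sheep table, and the unshifted row joins several entries under a single name. How far this split follows the assignment of reads to entries was not tested. The star row had 17, 7 and 9 counts. With the 3 unnamed rows added, the miR-29 sum grew by 1.85, 2.28 and 1.61 times in sheep replicates 1, 2 and 3.

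**Figure D1:**
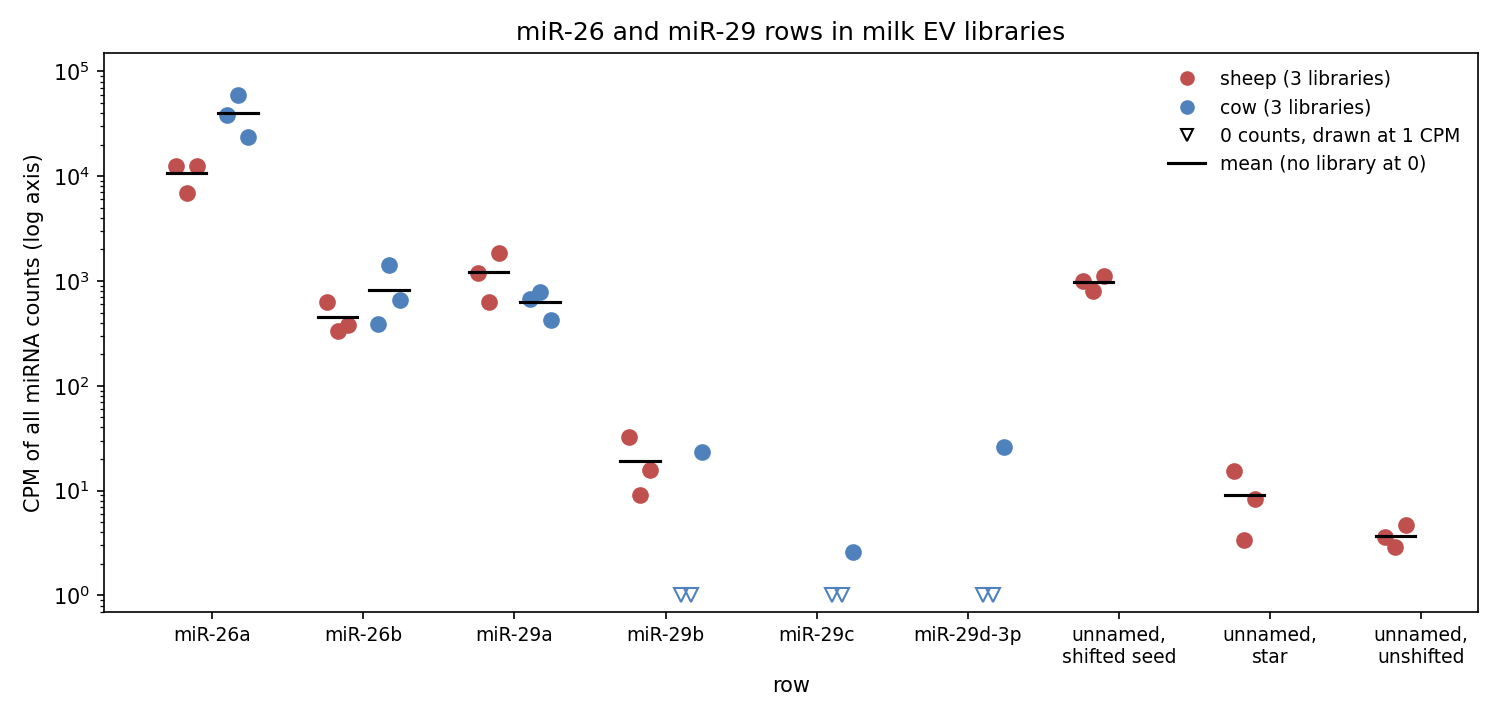
Level of each row in CPM of all miRNA counts (log axis), with 1 point per library, sheep left of cow, and a bar at the mean where no library was at 0. miR-26a lies between 6922 and 12597 CPM in sheep and between 23878 and 59015 CPM in cow, and the unnamed shifted row lies within the sheep range of miR-29a.

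In order of mean CPM, the sheep rows ran miR-26a, miR-29a, the shifted row, miR-26b, miR-29b, the star row and the unshifted row. Across libraries miR-29a and the shifted row overlapped, and the star row overlapped both miR-29b and the unshifted row. miR-29a came down to 627 CPM in replicate 2, and miR-26b reached 637 CPM in replicate 1. Within each sheep library miR-29a lay above miR-26b, at 1.85, 1.88 and 4.83 times its counts in replicates 1, 2 and 3. There the star row lay below miR-29b and above the unshifted row. The shifted row lay above miR-26b in every library without overlap. In cow the order was miR-26a, then miR-26b and miR-29a, which overlapped each other, and then the 3 rows with counts in replicate 3 only. Among the 520 seeds of the sheep table, summed over rows, the miR-26 seed ranked 14, 10 and 10 by counts and the miR-29 seed 43, 42 and 30 in replicates 1, 2 and 3.

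The rows also differed in how far the libraries of one species spread. Among the 122 sheep rows with at least 100 counts in every library, the SD of log2 CPM was 0.25 for the shifted row, and 5 rows had a smaller one. It was 0.49 for miR-26a, 0.49 for miR-26b and 0.78 for miR-29a, with a median of 0.83 over these rows. Among 71 such cow rows it was 0.65 for miR-26a, 0.94 for miR-26b and 0.47 for miR-29a, with a median of 0.57. In cow, 62 of the 71 rows spread less than miR-26b. On the deposited TPM scale the SD of log2 values in sheep was 0.39 for miR-26a, 0.75 for miR-26b, 0.35 for miR-29a and 0.33 for the shifted row. The order of the named sheep rows by spread thus depends on the scale, and the shifted row was the lowest of these on both. In cow the TPM scale gave 0.96 for miR-26a, 1.35 for miR-26b and 0.72 for miR-29a, the same order as in CPM.

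As a share of all miRNA counts, the miR-26 family lay lower in each sheep library than in any cow library, and the miR-29 family overlapped between the species. The named miR-26 rows took 1.31%, 0.726% and 1.30% of sheep replicates 1, 2 and 3 and 3.87%, 6.04% and 2.45% of cow replicates 1, 2 and 3. The means were 1.11% ± 0.334 in sheep and 4.12% ± 1.81 in cow (SD, n = 3 each). No sheep library reached a cow library, and the two-sided exact permutation test gave p = 0.1, the smallest that 3 against 3 allows (0.133 after Benjamini-Hochberg adjustment over 4 comparisons). Among the 38 shared miRNAs tested below, 23.7% were likewise lower in sheep without overlap. The named miR-29 rows took 0.121%, 0.0636% and 0.185% in sheep and 0.0679%, 0.0778% and 0.0472% in cow (exact permutation p = 0.3, adjusted 0.3). With the unnamed sheep rows added, the sheep shares were 0.224%, 0.145% and 0.299%, all above the cow shares (exact permutation p = 0.1). Rows were added on the sheep side only, which can only raise sheep, so this comparison cannot decide a species difference. The 31.6% of the tested shared miRNAs that were higher in sheep without overlap had no such addition. Taken over the counts of the shared names, these sheep sums overlapped the cow sums, at means of 0.460% and 0.563% (exact permutation p = 0.7).

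These shares depend on the denominator, since 1 row fills much of each library. With the largest row of each library left out, the miR-26 rows took 1.90% ± 0.245 in sheep and 9.89% ± 2.28 in cow, still without overlap (exact permutation p = 0.1), as 34.2% of the tested shared miRNAs were, and sheep replicate 2 no longer lay below the other sheep libraries. Against the constant behind the deposited TPM, which is far above the miRNA total, they took 0.111% ± 0.0324 in sheep and 0.147% ± 0.105 in cow and overlapped (exact permutation p = 0.9). The miR-29 rows took 0.0115% ± 0.00265 in sheep and 0.00221% ± 0.00108 in cow of that constant, without overlap (exact permutation p = 0.1). There 50.0% of the tested shared miRNAs were higher in sheep without overlap. Among the counts of the shared names the direction was the other way, at 0.257% ± 0.146 in sheep and 0.563% ± 0.0956 in cow, also without overlap (exact permutation p = 0.1), where 47.4% of the tested shared miRNAs were lower in sheep without overlap.

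**Figure D2:**
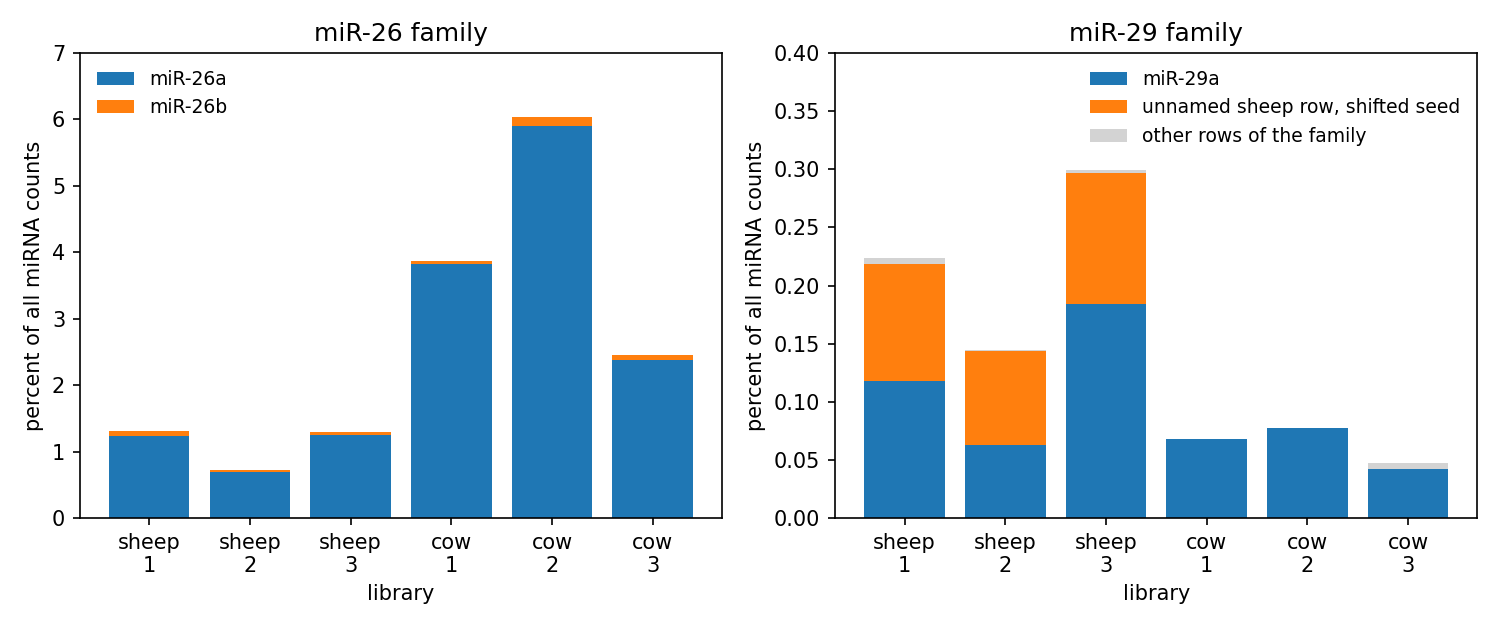
Share of all miRNA counts taken by the rows of each family in each library, stacked by row, in percent, with a different axis for each family. The miR-26 bars are 0.726% to 1.31% in sheep and 2.45% to 6.04% in cow, and the unnamed shifted row adds 0.0807% to 0.113% to the miR-29 bars of sheep.

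Ratios between rows of the same library need no scaling between libraries, and the ratio of miR-29 to miR-26 was higher in every sheep library than in any cow library. Named miR-29 rows over named miR-26 rows gave 0.0926, 0.0878 and 0.143 in sheep replicates 1, 2 and 3, against 0.0176, 0.0129 and 0.0193 in cow replicates 1, 2 and 3. On the log2 scale the means were -3.25 ± 0.39 in sheep and -5.93 ± 0.31 in cow (SD, n = 3 each), a difference of 2.68 (exact permutation p = 0.1, the smallest possible, adjusted 0.133). miR-29a over miR-26a alone gave 0.0948, 0.0907 and 0.146 in sheep and 0.0178, 0.0132 and 0.0177 in cow, a 6.71-fold higher ratio in sheep. With the unnamed sheep rows added to the miR-29 rows, on the sheep side only, the log2 difference was 3.60. Such shifts are common in these data. Of the 703 pairs among the 38 tested miRNAs, 64.2% had ratios without overlap, the median size of the log2 difference was 3.22, and 391 pairs differed by more than miR-29a and miR-26a (2.75).

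Within the miR-26 family, the part of miR-26b was larger in each sheep library than in any cow library. miR-26a over miR-26b was 19.5, 20.7 and 33.1 in sheep replicates 1, 2 and 3, against 97.1, 41.3 and 36.5 in cow replicates 1, 2 and 3. The species did not overlap, but sheep replicate 3 lay close to cow replicate 3. The log2 means were 4.57 ± 0.42 in sheep and 5.72 ± 0.77 in cow (SD, n = 3 each), a difference of -1.15 (exact permutation p = 0.1, adjusted 0.133). This is smaller than most, since 580 of the 703 pairs differed by more and 64.2% did not overlap. Without cow replicate 1 the difference was -0.71. Counted as a part of the family, miR-26a took 95.1% (95% Wilson interval 94.8 to 95.5), 95.4% (95.1 to 95.7) and 97.1% (96.8 to 97.3) in sheep, against 98.98% (98.8 to 99.1), 97.6% (97.5 to 97.8) and 97.3% (96.997 to 97.6) in cow. The intervals of sheep replicate 3 and cow replicate 3 overlap. miR-29a took 97.3% to 99.1% of the named miR-29 counts in sheep, and all of them in cow replicates 1 and 2 but 89.1% (83.7 to 92.8) in cow replicate 3.

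**Figure D3:**
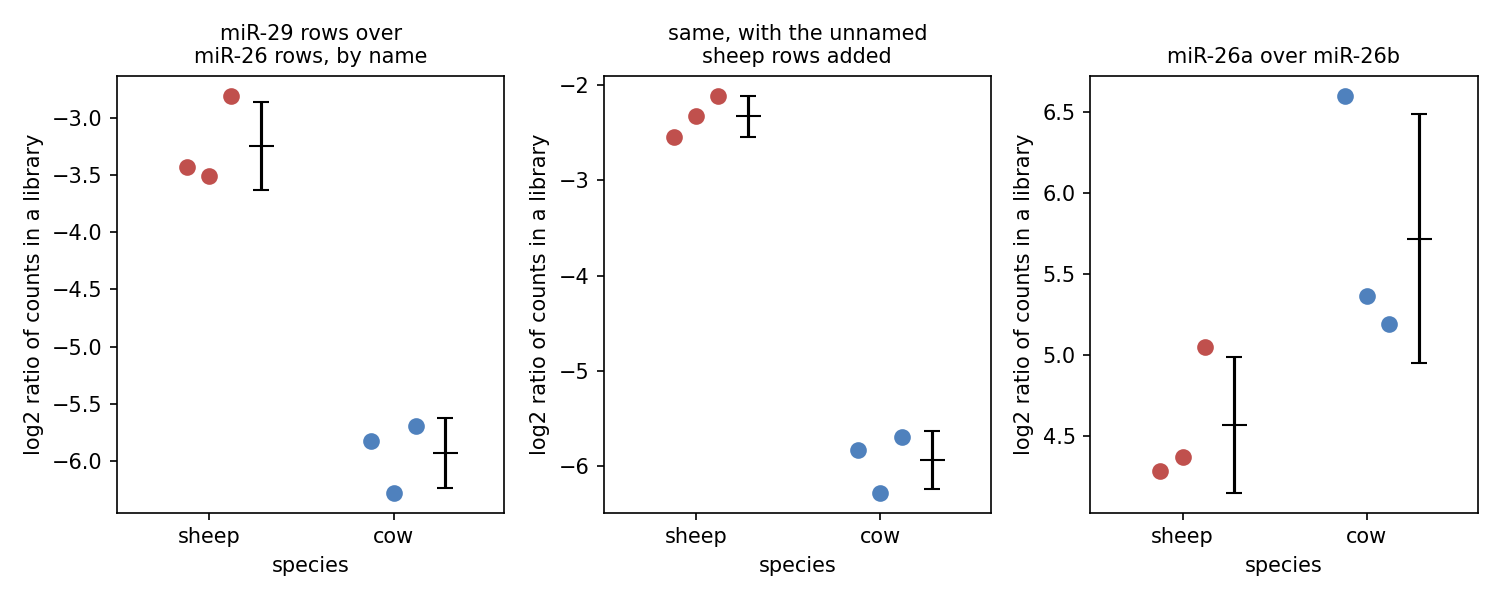
log2 ratio of counts within each library for the miR-29 over the miR-26 rows by name, the same with the unnamed sheep rows added, and miR-26a over miR-26b, with 1 point per library, sheep left of cow, and the mean ± SD beside the points. The first ratio is -3.51 to -2.81 in sheep and -6.28 to -5.70 in cow, and each panel has its own axis.

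Of the members in a test across all shared names, miR-26a alone passed the threshold. The 42 names found in both tables were compared as sheep over cow with edgeR's quasi-likelihood test, and 38 passed its filter on low counts, 3 of them members. Of the 38, 20 (52.6%) passed a Benjamini-Hochberg adjusted p of 0.05, 11 (28.9%) higher in sheep and 9 (23.7%) lower in sheep. Of the 3 members, 1 fell in sheep and none rose. miR-26a was lower in sheep, with a log2 fold change of -2.12 ± 0.67 (SE, adjusted p = 0.00529, edgeR), and 7 of the 38 lay farther to the cow side. miR-26b had -1.09 ± 0.67 (adjusted p = 0.171, edgeR) and miR-29a 0.73 ± 0.62 (adjusted p = 0.319, edgeR), and neither passed. With 1 library left out, miR-26b ran from -1.61 (without cow replicate 1) to -0.26 (without cow replicate 2), and miR-29a from 0.19 (without sheep replicate 3) to 1.22 (without cow replicate 2). The median of the 3 members was -1.09, beside 0.43 over all 38. miR-29b was left out by the filter, on 72 sheep and 9 cow counts.

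The size and the call depended on how the libraries were put on one scale. TMM factors, which correct for rows that fill a library, ran from 0.200 to 1.58 in sheep and from 1.63 to 2.47 in cow. limma on log2(TPM + 1) moved the tested miRNAs by a median of 1.87, and there miR-26a did not pass (-0.26 ± 0.73, adjusted p = 0.748) while miR-29a was higher in sheep (2.43 ± 0.72, adjusted p = 0.00476), where 47.6% of 42 miRNAs were called higher in sheep. Without normalization factors the tested miRNAs moved by a median of -1.75. There miR-26b passed as lower in sheep (-2.80, with 34.2% of the 38 called lower in sheep) and miR-29a stood at -1.10 without passing. miR-26b also passed with upper-quartile factors (-1.50, adjusted p = 0.0461, edgeR), where 10 of 38 miRNAs were called lower in sheep. With arm suffixes removed in the join it passed as well (-1.86, adjusted p = 0.0328, edgeR), where 14 of 50 were called lower in sheep. The gap between miR-29a and miR-26a, which a change of scaling factors moves little by construction, was 2.85 with TMM and between 2.26 and 3.04 in the 19 other settings, which include other tests and libraries left out. miR-26a lay below the median of the tested miRNAs in all 19, with differences from it between -2.99 and -1.11.

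**Figure D4:**
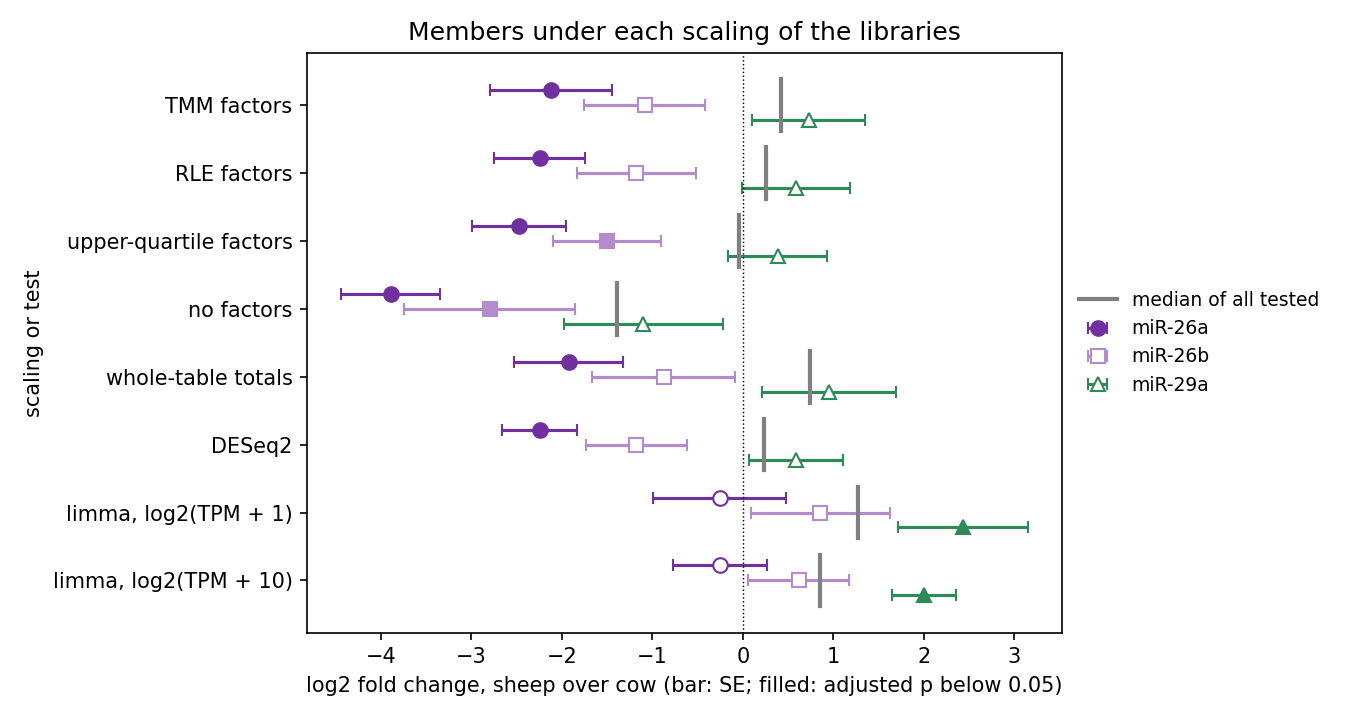
log2 fold change, sheep over cow, of the 3 tested members under 8 scalings or tests, with bars for the SE, filled points for an adjusted p below 0.05 and a grey mark at the median of all tested miRNAs. miR-26a runs from -3.89 to -0.25 and miR-29a from -1.10 to 2.43. In the settings on counts miR-26a lies between -2.67 (whole-table totals) and -2.43 (upper-quartile factors) from the grey mark. That gap is smaller with limma, at -1.52 for log2(TPM + 1) and -1.11 for log2(TPM + 10).

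Summed by family, with the sheep seed rows included, the miR-26 rows were lower in sheep (-2.13 ± 0.70, adjusted p = 0.00661, edgeR, 37 features, 24.3% of them called lower in sheep). That call was lost with limma on log2(TPM + 1) and log2(TPM + 10), at -0.22 in both, and with the replicate block (-2.21, adjusted p = 0.0671). The miR-29 sum was at 0.68 ± 0.63 (adjusted p = 0.340, edgeR). With the shifted row added it passed as higher in sheep, at 1.52 ± 0.61 (adjusted p = 0.0296, edgeR), where 29.7% of the features were called higher in sheep. That call was lost when sheep replicate 2 (1.41), sheep replicate 3 (1.17), cow replicate 1 (1.20) or cow replicate 3 (1.18) was left out, and the value was -0.29 without normalization factors. Cow rows without a name held at least 913 times the counts of the named miR-29 rows in every cow library. A cow row like the shifted one could not be looked for, so adding the shifted row could only raise sheep.

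The tested miRNAs nearest to each member in profile were listed by the distance between log2 CPM values, each centred on its own mean over the 6 libraries. For miR-26a they were miR-10b (1.66), miR-374b (1.82) and let-7f (1.85), with a median distance of 4.31 to the other 37. For miR-26b they were let-7f (1.33), miR-30c (1.42) and miR-16b (1.70), against a median of 3.63. For miR-29a they were miR-181a (1.09), miR-125b (1.09) and miR-221 (1.25), against a median of 3.43, and none of these 3 passed the test. All were picked by profile over these same libraries, so a direction shared with the member follows from the choice and is no separate result. Of the 3 nearest to miR-26a, let-7f did not pass (-0.61 ± 0.57, adjusted p = 0.363, edgeR). miR-10b and miR-374b were called lower in sheep, with log2 fold changes of -1.75 ± 0.57 and -2.86 ± 1.08 (adjusted p = 0.00580 and 0.0194, edgeR). Neither passed with log2(TPM + 1), at 0.28 and -0.83, or with log2(TPM + 10), at 0.26 and -0.38. The call of miR-10b was also lost with whole-table totals (-1.43), with the replicate block (-1.63) and without cow replicate 1 (-1.20), and that of miR-374b without sheep replicate 1 (-2.58), sheep replicate 3 (-2.56) or cow replicate 2 (-1.86).

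Few other miRNAs tied to the same processes could be tested. Of 9 miRNAs on a list related to matrix and fibrosis, 2 were tested, and miR-30a-5p was higher in sheep (1.51 ± 0.57, adjusted p = 0.0194, edgeR), but at -0.19 without normalization factors. It did not pass with upper-quartile factors (1.15), with the replicate block (adjusted p = 0.0971, edgeR) or without sheep replicate 2 (1.13). miR-30c had -0.83 ± 0.80 and did not pass. Of 8 on a list related to DNA or histone methylation, 3 were tested. miR-148a, known to act on the DNA methyltransferase DNMT1 in human cells, was higher in sheep (8.13 ± 1.30), and miR-152 had 1.05 ± 1.57 without passing. miR-143 was higher in sheep (1.57 ± 0.58), but did not pass without normalization factors (0.20), with upper-quartile factors (1.17), with arm suffixes removed (1.10), with the replicate block (1.64), without sheep replicate 2 (1.54) or without cow replicate 1 (1.46). The medians were 0.34 and 1.57, beside 0.43 over all 38.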

How the data were processed

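Small RNA of milk EVs was sequenced in 3 sheep and 3 cow libraries after TruSeq small RNA library preparation, per the labels' protocols. The deposited counts are whole reads per miRNA row, in 1 table per species. The submitters' processing notes name cutadapt 1.14 and Bowtie. The build, miRBase release and counting tool were not given in the sources used here. By their values, the deposited TPM values equal the authors' count divided by 1 constant per library, times 1000000, with no length correction. The 6 libraries held 328527 to 2078695 miRNA counts, and the Wilson intervals (95%) of the members' shares spanned at most 0.131 percentage points. The labels count 3 sheep but do not count the cows, so p-values measure only the spread between these libraries, which may be technical.

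Groups came from the sample titles. Names were joined between species without the oar or bta prefix, arm suffix kept. Shared names went into the quasi-likelihood test of edgeR 4.0.16 (TMM factors, default filterByExpr, the summed shared names as library size), with Benjamini-Hochberg adjustment over all tested and a threshold of 0.05. The SE is the fold change divided by the root of F. Family sums, with sheep seed rows, replaced the single members in a second test. A wider join by mature sequence had been planned, but no table of mature sequences was used here, so only member seeds were joined. Shares and within-library ratios (pseudocount 0.5 counts) were compared with exact permutation tests. The edgeR step was also run on simulated counts, with 10 miRNAs changed by a log2 fold change of size 3, evenly in both directions. Such balanced changes cannot show how the test behaves where 1 row fills much of a library, as here. Alternatives were DESeq2 1.42.0, limma 3.58.1 on log2(TPM + 1) and log2(TPM + 10), other factors, filters, joins, row sums and denominators, pseudocounts of 1 and 5, the replicate block, and each library left out. The miRNAs named are all member rows, the 3 nearest in profile to each tested member, and 2 lists of related miRNAs. Members and lists were chosen with earlier results of these data known.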

Additional observations from a re-analysis of the deposited data

How the results depend on the processing

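The shared-name test called 20 miRNAs and between 14 and 26 in its 19 alternatives (17 to 23 with 1 library left out), and the family-sum test called 19 and between 14 and 25 (17 to 21 with 1 library left out). miR-26a kept its direction in all 19 and its call in 16, from -3.89 to -1.48 (-2.43 to -1.48 with 1 library left out). Of these 16, 1 could not change it: adding a sheep seed row to its nearest member left the counts and the fit of miR-26a as they were. The replicate numbers are shared by label only: same-numbered libraries deviated with correlations of -0.090, 0.208 and 0.107, and not every library correlated best with its own number. With the replicate block 14 miRNAs were called, and miR-26a was at -2.19 (adjusted p = 0.0670) and the miR-26 sum at -2.21 (adjusted p = 0.0671). limma gave -0.22 for the miR-26 sum with log2(TPM + 1), also with the shifted row, and -0.22 with log2(TPM + 10), not past the threshold, and -0.25 for miR-26a. It gave 0.85 and 0.62 for miR-26b, the reverse direction, and for the miR-29 sum 2.42 and 2.01, past the threshold. In the family-sum test, 20 of 40 features were called higher in sheep with log2(TPM + 1) and 16 of 40 with log2(TPM + 10). The miR-29 sum was -1.12 without normalization factors, the reverse direction, as was miR-29a at -1.10, and 0.14 to 1.05 with 1 library left out. With the shifted row it was 1.52, and then 3.32 with log2(TPM + 1), -0.29 without normalization factors and 1.17 to 1.89 with 1 library left out (past the threshold at 1.89 without sheep replicate 1 and 1.81 without cow replicate 2). Without sheep replicate 1, 13 of 35 features were called higher in sheep, and without cow replicate 2, 13 of 39. As sheep minus cow share in percentage points, the miR-26 rows were at -3.01 (-3.84 to -2.05 with 1 library left out), -31.8 among shared names, -0.0364 of the constant behind the TPM and -7.99 without the largest row. The miR-29 rows were at 0.0591 (0.0281 to 0.0890 with 1 library left out), -0.307 among shared names, the reverse direction, 0.00932 of that constant and 0.158 with the unnamed rows. The log2 ratio of miR-29 to miR-26 differed by 2.68 (2.46 to 2.81 with 1 library left out) and by 3.60 with the unnamed rows. That of miR-26a to miR-26b differed by -1.15 (-1.41 to -0.71 with 1 library left out). Pseudocounts of 1 and 5 moved neither by more than the spread between libraries. The cause of these changes was not tested, apart from the rows summed and denominators named. Depth limits the reading of a 0 for miR-29b, miR-29c and miR-29d-3p in cow, where rows at 0 could lie at up to 5.39 CPM (cow replicate 2) or 9.13 CPM (cow replicate 1). In cow replicate 3 miR-29b was at 23.2 CPM and miR-29d-3p at 25.8 CPM, above both limits, and miR-29c at 2.58 CPM, below them. Why cow replicate 3 differed was not tested.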

Other observations

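The sheep table lists a row for the other arm of the unshifted miR-29 row, and its name joins the same several entries. It had 0, 1 and 63 counts in sheep replicates 1, 2 and 3, while the unshifted row had 4, 6 and 5, so 1 library held nearly all counts of that arm. The table pairs the star row with a mature row of 127, 75 and 76 counts, against 17, 7 and 9 for the star row.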
